A study of Mus musculus with 6 samples.

Results

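The genes described here are 8 components of the Notch pathway, namely the receptors Notch1, Notch3 and Notch4, the ligands Dll4 and Jag1, and the target genes Hes1, Hey1 and Heyl. They were chosen by symbol among 31053 genes, with earlier results of these data known, and all 8 were found in both tissues. UMIs (unique molecular identifiers, 1 per captured transcript molecule) had been counted in single cells of kidneys from male C57BL/6 mice of 12 weeks and of mammary tumors from female MMTV-PyMT mice of 10 weeks, in which the MMTV promoter drives the polyoma middle T antigen. Minced tissue was digested with type I collagenase, conventionally for 60 min (control) or in a microfluidic digestion device followed by a dissociation and filter device (platform), whose cells were taken at intervals of 15 and 60 min. By the study's interval protocol, cells released by 15 min were taken out and collagenase was renewed before digestion went on. The platform libraries are therefore successive fractions, and the 60 min interval lacks cells already removed. Cells that excluded the dead-cell dye Sytox Blue were sorted before droplet loading. Each condition gave 1 library per tissue, so that no difference between conditions has a replicate check. The study's reporting summary describes 1 replicate of sequencing, with all conditions of a replicate run on tissue of the same mouse. The sample labels do not name the mouse.

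Notch signaling works between touching cells. A Delta-like or Jagged ligand on one cell binds a Notch receptor on its neighbor, the receptor is cleaved by ADAM proteases and then by gamma-secretase, and the released intracellular domain joins the DNA-binding protein RBPJ and Mastermind-like coactivators to switch on genes of the Hes and Hey families of transcriptional repressors. In blood vessels Dll4 and Notch1 are known for arterial identity and for limiting sprouting, Notch4 is known as an endothelial receptor, and Notch3 is known as the receptor of smooth muscle cells and pericytes (mural cells).

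In the GRCm38 (mm10) assembly with GENCODE vM21 annotation, Notch1 (ENSMUSG00000026923) spans 26457903 to 26516663 on the minus strand of chromosome 2, and the other members on that chromosome are Dll4 (ENSMUSG00000027314, 119325784 to 119335962, plus strand) and Jag1 (ENSMUSG00000027276, 137081456 to 137116644, minus strand). Notch3 (ENSMUSG00000038146) spans 32120820 to 32166852 on the minus strand of chromosome 17, and Notch4 (ENSMUSG00000015468) spans 34564268 to 34588503 on the plus strand of the same chromosome. Hes1 (ENSMUSG00000022528) lies at 30064384 to 30067796 on the plus strand of chromosome 16, Hey1 (ENSMUSG00000040289) at 8663359 to 8667256 on the minus strand of chromosome 3 and Heyl (ENSMUSG00000032744) at 123233556 to 123249875 on the plus strand of chromosome 4. Apart from the microRNA Mir6996 inside Notch1, no member shares its strand with an overlapping annotated gene. The libraries read 3′ ends, so a level is compared between cells and libraries but not between genes.

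Upstream sequences are shown for Notch4 and Dll4, which were highest in endothelial-like cells of both tissues, and for Notch3, which was highest in mural-like cells of both. They lie outside the annotated gene and read 5′ to 3′ on its strand (RefSeq, GRCm38.p6). Capitals mark the letters AGGAA (the core bound by ETS factors) and GGGCGG (a GC box) on either strand, overlaps allowed.
Notch4, chr17:34564045-34564267, plus strand: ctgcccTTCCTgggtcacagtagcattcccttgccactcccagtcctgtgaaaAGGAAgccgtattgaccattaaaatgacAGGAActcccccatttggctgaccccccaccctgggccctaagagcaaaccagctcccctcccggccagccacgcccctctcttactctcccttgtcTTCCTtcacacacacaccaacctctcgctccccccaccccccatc
Dll4, chr2:119325534-119325783, plus strand: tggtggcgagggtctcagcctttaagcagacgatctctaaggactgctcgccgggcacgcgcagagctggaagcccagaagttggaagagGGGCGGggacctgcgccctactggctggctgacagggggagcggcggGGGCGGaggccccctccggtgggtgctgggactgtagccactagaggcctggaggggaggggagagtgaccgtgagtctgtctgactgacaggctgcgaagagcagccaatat
Notch3, chr17:32166891-32167140, minus strand: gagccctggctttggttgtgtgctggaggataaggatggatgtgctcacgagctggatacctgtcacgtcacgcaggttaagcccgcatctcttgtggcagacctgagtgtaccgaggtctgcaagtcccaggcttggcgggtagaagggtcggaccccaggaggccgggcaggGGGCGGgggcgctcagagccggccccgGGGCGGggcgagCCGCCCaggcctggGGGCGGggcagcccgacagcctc

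In the 250 bases before the RefSeq start site, Notch4 held 4 ETS cores and no GC box, Dll4 held 2 GC boxes, and Notch3 held 4 GC boxes. Neither Dll4 nor Notch3 held an ETS core. An ETS core was found in 60.3% of 32851 promoters of that length and a GC box in 32.7%. The RBPJ core TGGGAA (21.6% of promoters) and the E-box CACGTG (6.02%) were searched on both strands, and these letters were not in the windows of Notch1, Notch3, Notch4, Dll4 or Jag1, the 5 members with an entry in the table. Hes1, Hey1 and Heyl had none.

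The kidney libraries held 8233 to 13719 cells at medians of 5575 to 7976 UMIs per cell, and the tumor libraries 8152 to 8198 cells at medians of 8195 to 10285.5. Limits on genes and mitochondrial share kept 5736 to 9936 cells per library. A kept cell was given the class whose marker list had the largest share of genes detected, with at least 3 markers, which gated 21900 of 24212 kidney cells and 16729 of 17562 tumor cells. Classes are named by those markers as "-like". In an alternative by clusters, 0% of principal cell-like, distal convoluted tubule-like and tumor basal epithelial-like cells, and of some smaller classes, got the same class. The share was 97.9% to 99.5% for endothelial-like cells of the kidney. The endothelial marker Cdh5 stood at 523 UMIs per 1000000 UMIs (CPM) in endothelial-like cells of kidney against 0.837 in other gated cells. The pericyte marker Rgs5 stood at 4396 CPM in mural-like cells against 1.79. In tumor Cdh5 stood at 955 against 1.08 CPM and Rgs5 at 7819 against 6.61 CPM. Both are genes of the gates' own lists, so these values are no separate check of identity. Itga8, alone of the mural list, was lower in mural-like cells of the tumor, at 6.54 against 14.5 CPM. Barcodes shared with another library of the tissue made up 1.48% to 2.04% of cells in kidney and 0.440% to 0.503% in tumor.

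In whole kidney libraries, all 8 members were lowest at 15 min, as were 61.6% of 16938 genes with at least 20 UMIs. Notch1 stood at 13.5, 5.09 and 27.2 CPM in the control, 15 min and 60 min libraries, Dll4 at 6.72, 2.07 and 12.5 CPM and Hes1 at 78.4, 12.1 and 103 CPM. Over kept cells only, Notch1 stood at 22.5, 7.31 and 46.5 CPM, Dll4 at 11.8, 3.13 and 21.9 CPM and Hes1 at 113, 13.6 and 156 CPM, the order of the libraries being the same. Proximal tubule-like cells, which held few UMIs of these genes, were 44.9%, 84.1% and 27.5% of kept cells in the same order. Endothelial-like cells numbered 583, 396 and 2543 in kidney and 318, 258 and 802 in tumor. In whole tumor libraries Hey1 was highest at 15 min (43.8, 93.4 and 38.9 CPM), whereas Heyl was highest at 60 min (0.531, 1.09 and 7.16 CPM). In whole libraries, fewer cells of a class and less RNA per cell cannot be told apart. All values below are given in the order control, 15 min and 60 min unless stated.

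The receptors and ligands of the kidney differed in the class that held most of them. Notch1 stood in endothelial-like cells at 228, 226 and 189.8 CPM (mean 215 ± 21.8, SD, n = 3 libraries). The next classes had overlapping intervals, with pooled levels of 56.6 CPM (30.1 to 96.8) in granulocyte-like, 54.6 CPM (33.4 to 84.3) in mural-like, 38.4 CPM (26.8 to 53.5) in NK cell-like and 34.8 CPM (29.2 to 41.2) in T lymphocyte-like cells (95% Poisson intervals in parentheses, as for all levels). Macrophage-like cells stood at 21.8 CPM (19.6 to 24.2). Proximal tubule-like cells held 40 UMIs of Notch1 in 12432 cells. A Notch1 UMI was found in 55.1% of endothelial-like cells of the control, at a median of 4120 UMIs per cell, and in 0.341% of proximal tubule-like cells, at a median of 6249.

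Notch4 stood in endothelial-like cells of the kidney at 70.1, 90.3 and 82.8 CPM. Of the other classes with more than 10 UMIs of Notch4, dendritic cell-like cells were the highest, at 8.56 CPM (4.68 to 14.4), and proximal tubule-like cells stood at 1.05 CPM (0.852 to 1.28). Dll4 stood at 156, 118 and 107 CPM in endothelial-like cells, and the next class was intercalated cell-like, at 13.9 CPM (6.35 to 26.4) from 9 UMIs. The levels of Notch4 and Dll4 in endothelial-like cells did not overlap those of any other class with at least 20 cells in a library.

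Notch3 stood in mural-like cells of the kidney at 281 CPM in the 21 cells of the control and at 398 CPM in the 47 cells of the 60 min library. The 15 min library held only 4 such cells. Endothelial-like cells held 16 UMIs of Notch3 in 3522 cells, or 1.105 CPM (0.632 to 1.79). A Notch3 UMI was found in 61.9% (exact binomial interval 38.4 to 81.9) of mural-like cells of the control and in 0.172% of endothelial-like cells.

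The ligand Jag1 was found in more classes. Mural-like cells stood at 190.2 CPM in the control and 137 at 60 min, and intercalated cell-like cells of the collecting duct at 79.99, 46.4 and 89.6 CPM. Endothelial-like cells stood at 18.5, 16.9 and 18.3 CPM, and their pooled level of 18.2 CPM (16.03 to 20.5) overlapped that of thick ascending limb-like cells, 16.96 CPM (12.1 to 23.2), and of principal cell-like cells, 13.2 CPM (8.09 to 20.4).

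Among the targets, Hes1 was the most broadly detected. Endothelial-like cells stood at 1032, 352 and 599.8 CPM, and mural-like cells at 815 CPM in the control and 560.1 at 60 min. Their pooled levels, 645 CPM (632 to 659) and 631 CPM (552 to 718), overlapped. Principal cell-like cells followed at 395 CPM (364 to 428), and intercalated cell-like cells, at 145 CPM (117 to 178), overlapped thick ascending limb-like cells, at 131 CPM (117 to 147). Hey1 was low, with 109 UMIs at 7.53 CPM (6.18 to 9.08) in endothelial-like cells and 5 UMIs at 13.7 CPM (4.43 to 31.9) in mural-like cells. Heyl stood in mural-like cells at 145 CPM in the control and 74.7 at 60 min, from 16 and 18 UMIs, and endothelial-like cells held 3 UMIs of it.

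**Figure D1:**
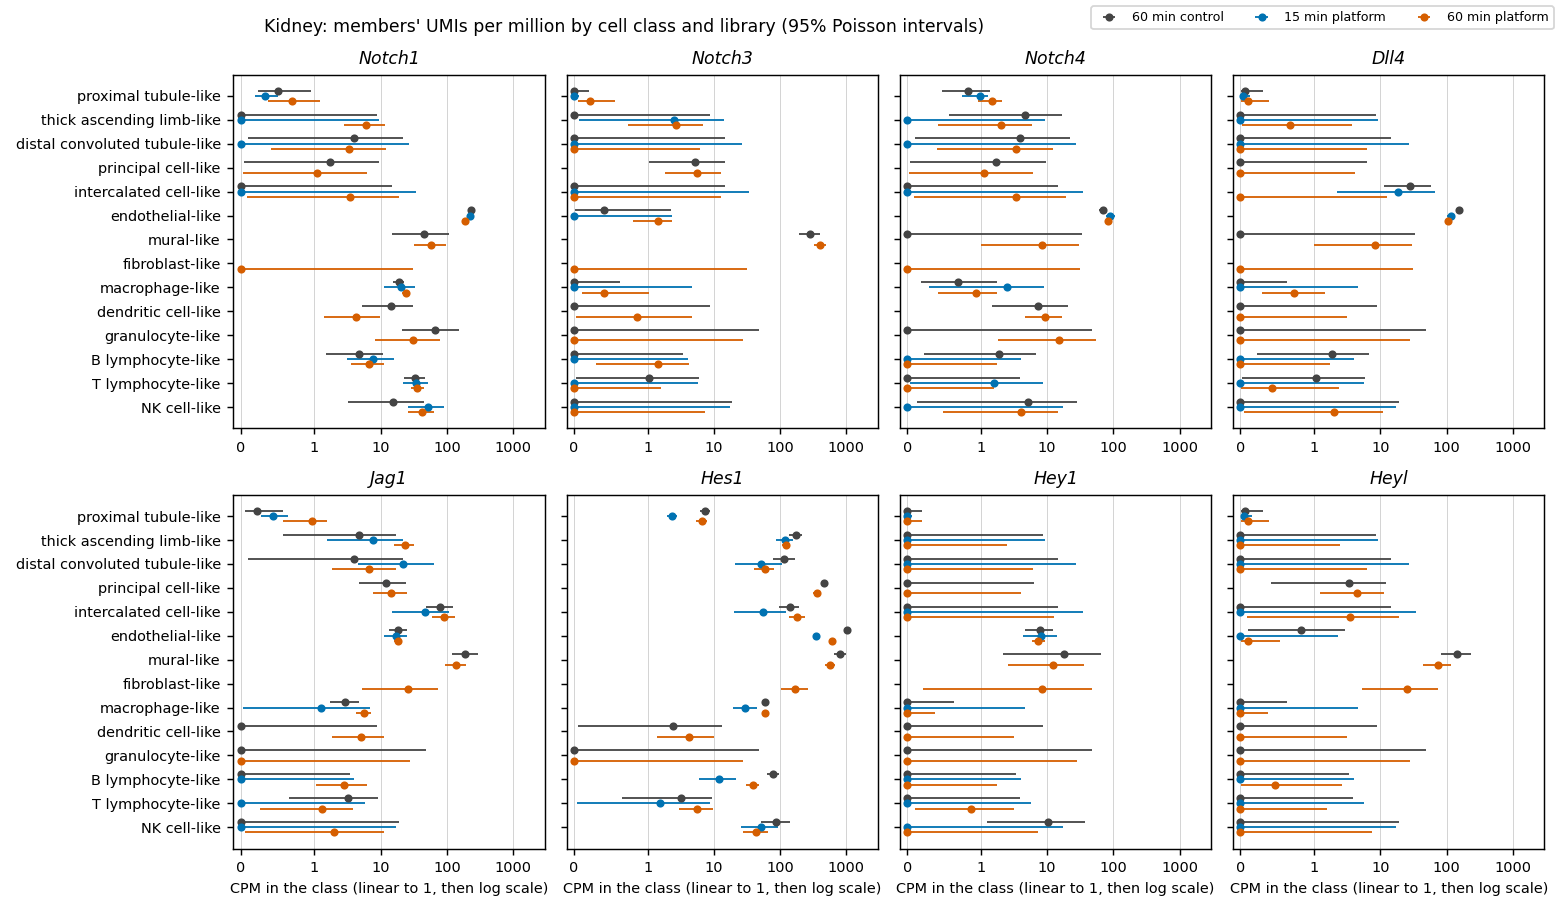
Level of each gene in UMIs per 1000000 (CPM; x axis, linear up to 1 and logarithmic beyond) in each kidney class (y axis), 1 point per library where the class has at least 20 cells, with 95% Poisson intervals. Notch1, Notch4 and Dll4 are highest in endothelial-like cells in all 3 libraries, Notch3 and Heyl in mural-like cells, and Hes1 is high in endothelial-like, mural-like and principal cell-like cells.

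In the tumor, endothelial-like and mural-like cells again held the highest levels of most members, and luminal epithelial-like cells held several of them too. Notch1 stood in endothelial-like cells at 238, 222 and 161 CPM and in luminal epithelial-like cells at 82.9, 109 and 75.5 CPM, and these ranges did not overlap. Luminal epithelial-like cells (9928 cells) held 8832 UMIs of Notch1 and endothelial-like cells (1378 cells) 1914. Macrophage-like cells stood at 42.3, 30.1 and 22.7 CPM, and their pooled level of 30.4 CPM (28.7 to 32.2) overlapped the 33.2 CPM (28.4 to 38.6) of T lymphocyte-like cells.

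Notch4 stood in endothelial-like cells of the tumor at 156, 148 and 78.9 CPM and in luminal epithelial-like cells at 1.52 CPM (1.28 to 1.79) over all libraries. Dll4 stood at 196, 227 and 174 CPM in endothelial-like cells and at 2.96 CPM (2.62 to 3.32) in luminal epithelial-like cells. Notch3 was highest in mural-like cells, at 484, 612 and 458 CPM in 19, 30 and 83 cells. Luminal epithelial-like cells stood at 20.7, 28.2 and 18.9 CPM of Notch3 and held 2241 of its UMIs, against 453 in mural-like cells. Fibroblast-like cells followed at 14.8 CPM (11.3 to 18.9) and endothelial-like cells at 1.94 CPM (1.18 to 2.99).

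Jag1 was highest in mural-like cells of the tumor, at 92.7 CPM (74.04 to 115). Basal epithelial-like cells at 52.6 CPM (38.7 to 70), fibroblast-like cells at 46.9 CPM (40.6 to 53.8) and endothelial-like cells at 39.3 CPM (35.5 to 43.3) followed, and the intervals of these 3 classes overlapped. Luminal epithelial-like cells stood at only 1.99, 1.56 and 1.75 CPM of Jag1.

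Hes1 stood in endothelial-like cells of the tumor at 573, 514 and 638 CPM and in luminal epithelial-like cells at 293, 204 and 274 CPM. Hey1 was highest in luminal epithelial-like cells when libraries were pooled, at 95.5 CPM (93.6 to 97.5) against 63.02 CPM (58.3 to 68.1) in endothelial-like cells, but the difference varied by library. Luminal epithelial-like cells stood at 67.9, 127 and 80.2 CPM and endothelial-like cells at 70.6, 74.7 and 57.5 CPM. In the control these levels were close, with 125 Hey1 UMIs in endothelial-like cells, and no order was read there. Hey1 in endothelial-like cells of the kidney reached no more than 8.16 CPM, although tissue, sex, age and strain cannot be told apart between the tissues. Heyl stood in mural-like cells at 75.7, 120.3 and 141 CPM and in fibroblast-like cells at 2.29, 39.96 and 60.4 CPM, the control holding 1 Heyl UMI in 42 fibroblast-like cells.

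**Figure D2:**
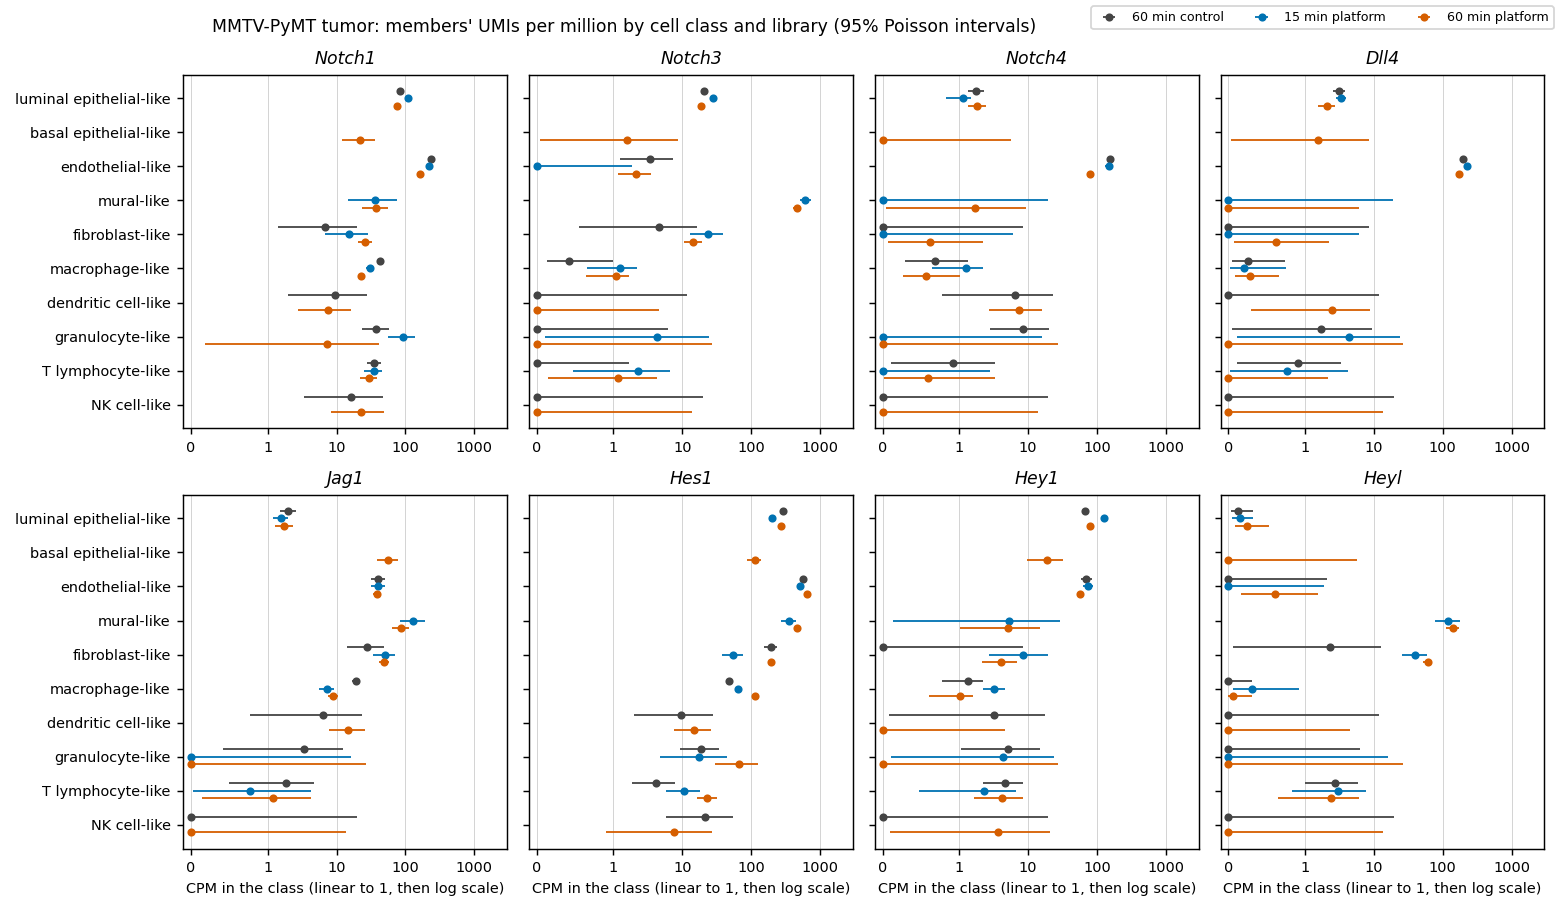
Level of each gene in UMIs per 1000000 (CPM; x axis, linear up to 1 and logarithmic beyond) in each tumor class (y axis), 1 point per library where the class has at least 20 cells, with 95% Poisson intervals. Notch4 and Dll4 are highest in endothelial-like cells, Notch3 and Heyl in mural-like cells, and Notch1, Notch3, Hes1 and Hey1 are also found in luminal epithelial-like cells.

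Classes were compared with UMIs summed per class and library, by edgeR's quasi-likelihood test with library as a term and Benjamini-Hochberg adjustment over all genes. The mean of the other classes was taken over log levels with equal weight per class, so small classes near 0 counted like large ones. The p-values measure the spread between 3 libraries of a tissue, from the same mouse by the study's reporting summary, not between animals. Fitted folds depend on a prior count where other classes are at 0, so that the levels above give the sizes. Because the members were chosen with earlier results known, the shares of all genes given beside them are no independent test of the list. In kidney endothelial-like cells 6 of 8 members were higher than the mean of the other classes, by at least 2-fold at an adjusted p under 0.05, and 0 were lower, against 25.6% higher and 2.62% lower among 12426 genes. The 6 were Notch1 (adjusted p = 4.53e-23), Notch4 (2.39e-21), Dll4 (7.39e-21), Hes1 (3.41e-20), Hey1 (3.28e-07) and Jag1 (0.000229). In DESeq2 the call of Hey1 was lost (adjusted p = 0.6097). Notch3 (adjusted p = 0.473) and Heyl (0.734) did not pass, and the call of Notch3 was gained when only the lower limit of genes was applied to cells (0.00579). The median log2 fold change was 4.66 over the members and 0.44 over all genes.

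In kidney mural-like cells, which entered the fit with 2 libraries, 6 of 8 members were higher and 0 were lower, against 13.1% higher and 3.56% lower among all genes. They were Notch3 (adjusted p = 1.01e-16), Hes1 (4.04e-14), Jag1 (1.38e-10), Heyl (2.15e-10), Notch1 (0.000255) and Hey1 (0.001303). DESeq2 lost the calls of Heyl (adjusted p = 0.128) and Hey1 (0.711), and without the 60 min library edgeR lost that of Notch1 (0.0758). Notch4 (adjusted p = 0.7202) and Dll4 (0.227) did not pass. Against all other gated cells pooled, the CPM ratio of Notch1 was 1.9 (0.615 to 4.45) in the control and 1.19 (0.648 to 1.99) at 60 min. Both intervals included 1. The other called members were above 1 in both libraries.

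In tumor endothelial-like cells 6 of 8 members were higher and 0 were lower, against 18.5% higher and 4.37% lower among 13083 genes. They were Dll4 (adjusted p = 4.11e-18), Notch4 (9.79e-16), Hes1 (1.12e-11), Hey1 (1.51e-11), Notch1 (9.48e-11) and Jag1 (1.96e-06). Against all other gated cells pooled, the CPM ratio of Hey1 was 1.53 (1.27 to 1.84), 0.763 (0.644 to 0.9) and 1.41 (1.26 to 1.58). The other called members were above 1 in every library. In tumor mural-like cells, for which the 15 and 60 min libraries entered the fit, 4 of 8 were higher and 0 were lower, against 13.2% and 4.62% of all genes. These were Notch3 (adjusted p = 8.49e-15), Heyl (1.76e-10), Jag1 (1.44e-07) and Hes1 (7.66e-07). Notch1 did not pass there (adjusted p = 0.952), at 40.3 CPM (28.4 to 55.6).

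Within endothelial-like cells, vessel types were read from short lists of known genes, by comparing cells with at least 2 genes of a list with cells that held none. In kidney, 932 cells were positive and 1464 negative for the arterial list (Gja4, Gja5, Sox17, Sema3g, Bmx, Efnb2 and Fbln5). The CPM ratio of Dll4 between them was 1.93 (1.48 to 2.52), 1.85 (1.28 to 2.69) and 2.21 (1.898 to 2.57) in the 3 libraries, with 95% counting intervals. That of Jag1 was larger, at 5.301 (2.36 to 13.4), 5.87 (1.98 to 23.5) and 4.53 (3.13 to 6.698), and with 3 genes of the list required it was 9.96, 16.95 and 9.105. Hey1 stood at 17.6 CPM in arterial-positive and 1.43 CPM in negative cells over all libraries, a ratio of 12.3 (5.91 to 29.5), or 20.96 with 3 genes required. Pooled ratios were smaller for Notch1, 1.32 (1.21 to 1.45), Notch4, 1.29 (1.12 to 1.49), and Hes1, 1.39 (1.33 to 1.47).

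Cells positive for the venous list (Nr2f2, Ackr1, Selp and Vcam1) had less Dll4 than venous-negative cells of the kidney, with ratios of 0.241 (0.133 to 0.405), 0.279 (0.0894 to 0.666) and 0.407 (0.317 to 0.516). Over all libraries Notch4 was at 0.621 (0.5001 to 0.766) and Notch1 at 0.733 (0.646 to 0.829). Jag1 did not keep a direction, with 2.35 (0.969 to 5.37) in the control and 0.537 (0.297 to 0.907) at 60 min. For the glomerular list (Ehd3, Plat, Gata5 and Sost) the largest difference was that of Jag1, at 7.73 CPM in positive and 38.04 CPM in negative cells, a ratio of 0.203 (0.136 to 0.299), or 0.324 with each cell thinned to 1000 UMIs. Dll4 did not keep a direction there, from 1.68 (1.22 to 2.35) in the control to 0.607 (0.394 to 0.938) at 15 min.

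In the tumor, arterial-positive endothelial-like cells (644, against 267 negative cells) had Dll4 ratios of 1.85 (1.33 to 2.62), 1.87 (1.37 to 2.61) and 2.19 (1.75 to 2.78) and Hey1 ratios of 6.52 (2.89 to 18.2), 7.44 (3.11 to 23.3) and 8.75 (4.39 to 20.5). With 3 genes required the ratios of Hey1 were 9.66, 13.4 and 15.2. Jag1 did not keep the direction it had in kidney, with 2.805 (1.19 to 8.06), 0.646 (0.363 to 1.195) and 0.877 (0.601 to 1.31). Venous-positive cells had less Notch4, with ratios of 0.229 (0.142 to 0.355), 0.487 (0.346 to 0.675) and 0.233 (0.1804 to 0.299), and over all libraries less Dll4, 0.298 (0.262 to 0.339), and Hey1, 0.139 (0.104 to 0.182). With 3 genes required Notch4 was at 0.0959, 0.221 and 0.164. Hes1 varied, at 1.46 (1.25 to 1.698) in the control and 0.939 (0.873 to 1.01) at 60 min.

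The tip list (Apln, Esm1, Pgf, Angpt2, Cxcr4 and Nid2) holds genes of the leading cells of vascular sprouts and was used in the tumor only. Tip-positive cells had more Dll4, with ratios of 2.19 (1.56 to 3.15), 2.59 (1.76 to 3.93) and 2.27 (1.895 to 2.73) (3.37, 3.41 and 3.297 with 3 genes required), and over all libraries more Notch4, 1.902 (1.59 to 2.29), and Hey1, 3.19 (2.42 to 4.28). Hes1 was lower in the control, at 0.703 (0.597 to 0.829), but not at 15 min, at 1.07 (0.884 to 1.297). List-positive cells were deeper, with medians of 8996.5 and 5325 UMIs for the tip list. With each cell thinned to 1000 UMIs the pooled ratio of Dll4 was 2.53 for the tip list, and that of Hey1 1.79. Here and for the other lists the draw covered members only, not list genes. It did not remove an effect of depth on list membership. Cells could be positive for more than 1 list.

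**Figure D3:**
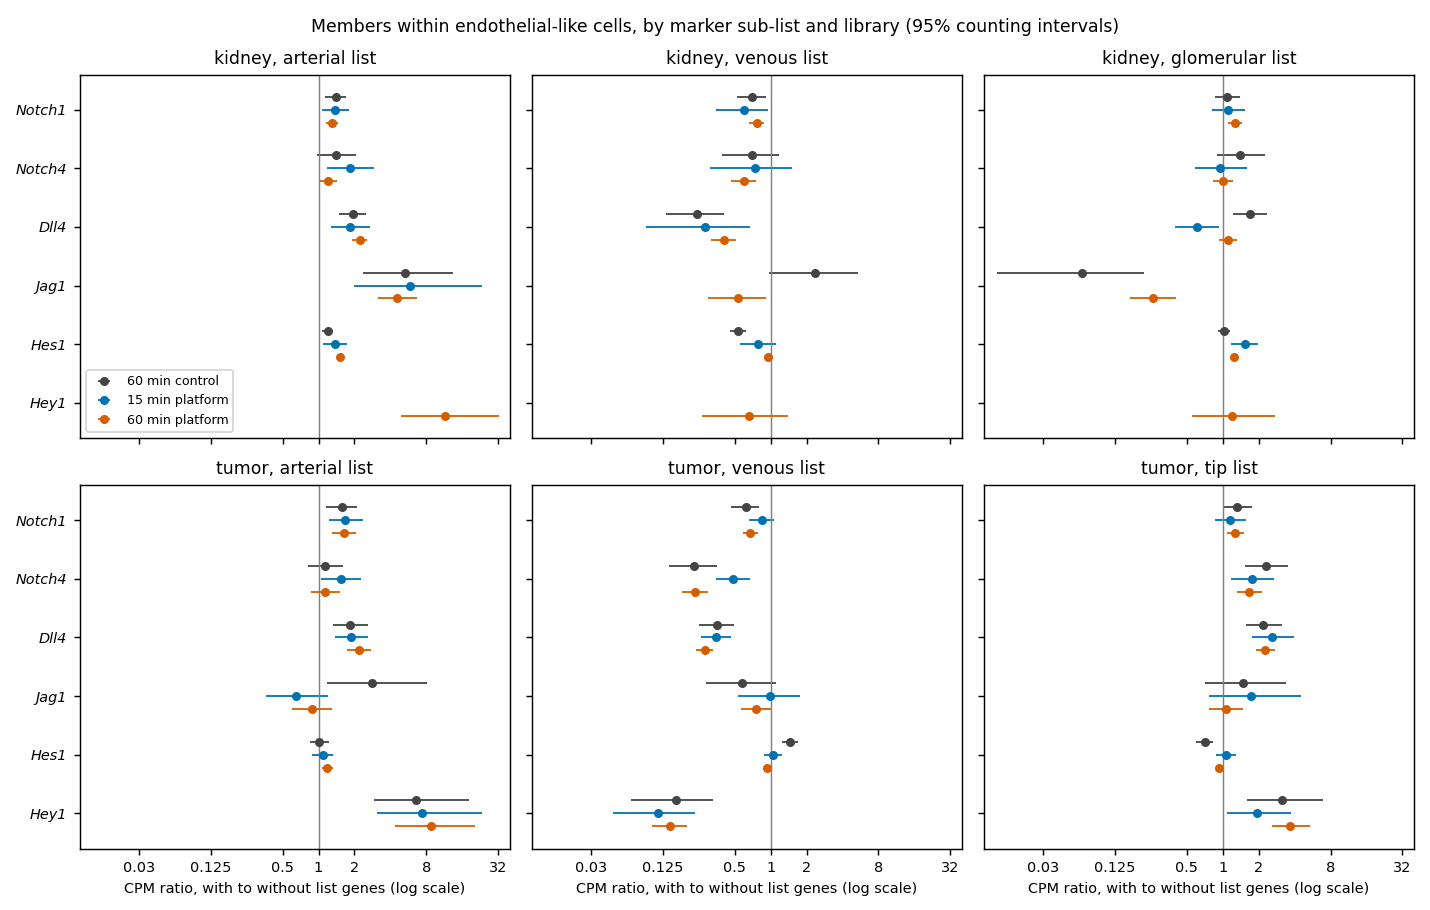
Ratio of CPM between endothelial-like cells with at least 2 genes of a marker list and those with none (x axis, log scale) for 6 genes (y axis), 1 point per library with 95% counting intervals, where the cells compared held enough UMIs. Dll4 lies above 1 for both arterial lists and below 1 for both venous lists in all 3 libraries, and Jag1 lies above 1 in all 3 libraries for the arterial list of the kidney.

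Within classes with 50 or more cells in each library compared, platform and control were set against each other as CPM ratios with exact counting intervals, which do not cover differences between preparations. Genes with at least 20 UMIs in the pair of libraries were counted as past 2-fold in either direction. In kidney endothelial-like cells 1 of 6 members was past 2-fold at 15 min, against 7.31% of all genes, and 0 of 6 at 60 min, against 6.99%. The 1 was Hes1, at 0.341 (0.311 to 0.374) at 15 min and 0.581 (0.555 to 0.609) at 60 min. Dll4 was also below the control, at 0.755 (0.631 to 0.901) and 0.684 (0.609 to 0.771), and Notch4 above it, at 1.29 (1.03 to 1.62) and 1.18 (1.001 to 1.4). Notch1 was at 0.992 (0.866 to 1.13) and 0.831 (0.756 to 0.915). The intervals of Jag1 and Hey1 included 1 at both times.

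Hes1 was lowest at 15 min in 4 other kidney classes with 50 cells in each library, namely proximal tubule-like (7.43, 2.37 and 6.56 CPM), B lymphocyte-like (78.8, 11.9 and 38.4 CPM), macrophage-like (58.5, 29.9 and 59.2 CPM) and thick ascending limb-like cells (172, 118 and 122 CPM). Thick ascending limb-like cells differed little between 15 and 60 min, with a Hes1 UMI in 28.4% and 28% of cells. A Hes1 UMI was found in 3.97%, 1.8% and 3.29% of proximal tubule-like cells and in 16.2%, 4% and 10.1% of B lymphocyte-like cells. The median depths were 6249, 7294 and 6479 UMIs in the first class and 3600, 3638 and 3679 UMIs in the second. The endothelial marker Cdh5, a gate gene that both should lack, was found in 0.0757%, 0.0425% and 0.366% of proximal tubule-like cells. B lymphocyte-like cells held 2, 0 and 7 UMIs of it. T lymphocyte-like cells held only 3, 1 and 13 UMIs of Hes1, beside 0, 0 and 6 of Cdh5, and no level was read from them. Cdh5 in endothelial-like cells stood at 521, 525 and 523 CPM. Over whole kidney libraries Hes1 stood at 78.4, 12.1 and 103 CPM, the same library being lowest. By the study's sequencing metrics, that library also had the largest share of reads within cells among the kidney libraries. The study reads its shares as minimal free RNA after sorting. The part of free RNA in the low levels was not tested, nor was a change of Hes1 within these low classes. The ratio at 15 min was 0.319 (0.249 to 0.408) in proximal tubule-like, 0.151 (0.0728 to 0.285) in B lymphocyte-like and 0.689 (0.467 to 1.01) in thick ascending limb-like cells, the last with an interval that included 1. At 60 min it was 0.883 (0.685 to 1.14), 0.487 (0.355 to 0.668) and 0.712 (0.5396 to 0.948). In endothelial-like cells the immediate early genes Fos (2600, 993 and 2894 CPM) and Egr1 (1442, 383 and 1619 CPM) were also lowest at 15 min, whereas in macrophage-like cells Fos was lowest in the control (1714, 3844 and 4729 CPM). The median mitochondrial share of endothelial-like cells was 3.95%, 3.08% and 4.61%. The part of early gene expression in the result was not tested.

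In kidney macrophage-like cells 0 of 2 members were past 2-fold at 15 min, against 14.8% of all genes, and 0 of 3 at 60 min, against 6.59%. Hes1 at 15 min was at 0.512 (0.323 to 0.774), from 24 UMIs in 140 cells. Jag1 at 60 min was at 1.92 (1.09 to 3.52). In thick ascending limb-like cells Jag1 stood at 4.71, 7.56 and 23 CPM, with 2, 3 and 34 UMIs and a ratio at 60 min of 4.88 (1.25 to 41.9).

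In tumor macrophage-like cells 2 of 5 members were past 2-fold at 15 min, against 15.4% of all genes, and 3 of 5 at 60 min, against 7.96%. Jag1 stood at 19.1, 7.23 and 8.88 CPM, with ratios of 0.378 (0.284 to 0.497) and 0.464 (0.376 to 0.571). Hes1 moved the other way, at 47.8, 64.5 and 116 CPM, and was past 2-fold at 60 min with 2.42 (2.2 to 2.66). The remaining members past 2-fold were Hey1 at 15 min, at 2.39 (1.27 to 4.67) from 31 UMIs, and Notch3 at 60 min, at 2.53 (0.913 to 8.66) from 19 UMIs. Hey1 stood at 1.36 and 3.25 CPM in the control and 15 min libraries, beside 67.9 and 127 CPM in luminal epithelial-like cells. The part of free RNA or doublets in these low levels was not tested. Notch1 was at 0.712 (0.613 to 0.824) and 0.537 (0.469 to 0.613). Fos in these cells stood at 863, 4479 and 2863 CPM and Egr1 at 222, 1611 and 754 CPM, and their part in the result was not tested.

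In tumor luminal epithelial-like cells 0 of 7 members were past 2-fold at 15 min, against 6.3% of all genes, and 0 of 7 at 60 min, against 4.27%. Hey1 came nearest, at 1.87 (1.78 to 1.97) and 1.18 (1.11 to 1.26). At 15 min Notch1 was at 1.32 (1.26 to 1.39) and Notch3 at 1.36 (1.24 to 1.504), whereas Hes1 was at 0.695 (0.675 to 0.716). In tumor endothelial-like cells 0 of 6 members were past 2-fold at 15 min, against 5.25% of all genes, and 0 of 7 at 60 min, against 5.63%. Notch4 at 60 min was at 0.505 (0.435 to 0.586), just inside 2-fold, and Notch1 at 0.674 (0.601 to 0.756). At 15 min the intervals of both included 1, at 0.948 (0.802 to 1.12) and 0.9295 (0.811 to 1.07).

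**Figure D4:**
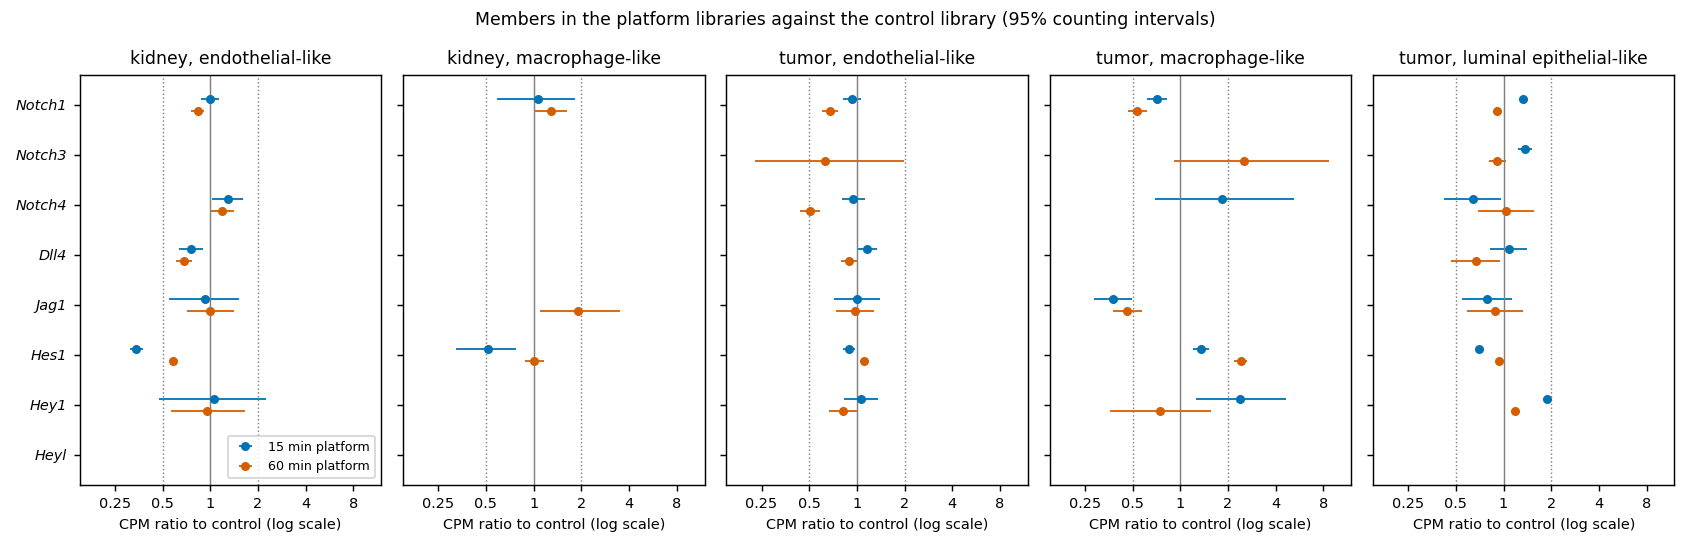
Ratio of CPM in the 15 min and 60 min platform libraries to the control (x axis, log scale) for each member with at least 20 UMIs in the pair of libraries (y axis), in 5 classes, with 95% counting intervals. Dotted lines mark 2-fold. Hes1 at 15 min lies at 0.341 in kidney endothelial-like cells, and Jag1 in tumor macrophage-like cells lies below 0.5 at both times.

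Cycling luminal epithelial-like cells of the tumor, with at least 3 of Mki67, Top2a, Cdk1, Birc5 and Ube2c, were compared with cells that held none, a comparison chosen after seeing the data. In 192 cycling cells Hey1 stood at 44.7 CPM, against 99.95 CPM in 8634 others, with ratios of 0.504 (0.346 to 0.711), 0.4801 (0.319 to 0.695) and 0.524 (0.3696 to 0.722) in the 3 libraries. The pooled ratio was 0.447 (0.363 to 0.545), and 0.267 with cells thinned to 1000 UMIs. Notch1 was at 0.498 (0.353 to 0.683), 0.623 (0.423 to 0.886) and 0.636 (0.454 to 0.866). Hes1 was at 0.507 (0.426 to 0.599) in the control and 0.551 (0.4599 to 0.656) at 60 min, but its interval included 1 at 15 min, at 0.931 (0.744 to 1.15) with 35 cycling cells.

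Members were also scored together in single cells, each thinned to 1000 UMIs. In kidney endothelial-like cells of the control, Hes1 was found in 45.1% (36.1 to 54.3) of cells with a Notch1 UMI and in 45.6% (40.9 to 50.4) of those without. Cells with a Dll4 UMI held Hes1 in 42.9% (36.7 to 49.2) at 60 min, against 34.5% (32.6 to 36.5) of those without, and the intervals overlapped in the other libraries, at 52.7% and 44.4% in the control. In luminal epithelial-like cells of the tumor control, Hey1 was found in 10.7% (7.47 to 14.7) of cells with a Notch1 UMI and in 5.96% (5.15 to 6.85) of those without, and the intervals overlapped at 15 and 60 min. At this depth a cell with no UMI may still express the gene.

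Other pathway genes came from a list of 42. In kidney endothelial-like cells 17 of 37 tested were higher than the mean of the other classes and 1 was lower, beside 25.6% and 2.62% of all genes. The largest differences were those of the ligand Jag2 (25.8, 33.3 and 26.5 CPM, adjusted p = 1.14e-13), the glycosyltransferase Mfng, which modifies Notch receptors (91.4, 101 and 95.05 CPM, 2.91e-15), the ligand Dll1 (11.5, 16.3 and 13.02 CPM, 6.36e-09) and the feedback inhibitor Nrarp (39.8, 28.9 and 20.2 CPM, 5.79e-10). The receptor Notch2 was lower, at 2.46, 5.65 and 7.75 CPM (adjusted p = 1.18e-05). In kidney mural-like cells 5 of 37 were higher and 0 lower, beside 13.1% and 3.56% of all genes, a share near that of genes in general. The list was led by the repressor Hey2 (136 and 133 CPM in the control and 60 min libraries, adjusted p = 2.17e-10), Nrarp (2.12e-09), the coactivator Maml3 (1.30e-06) and Dtx3 (1.32e-07). Notch2 was also higher there (adjusted p = 5.91e-06).

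In tumor endothelial-like cells 10 of 39 pathway genes were higher and 2 lower, beside 18.5% and 4.37% of all genes. Mfng (148, 157 and 152 CPM, adjusted p = 8.20e-15), Jag2 (106, 88.9 and 56.6 CPM, 1.15e-11), Dll1 (44.6, 47.3 and 31.3 CPM, 2.30e-10) and Nrarp (94.3, 115 and 67.1 CPM, 3.22e-12) led, as in kidney, and Notch2 (8.90e-07) and Rbpj (22.6, 23.4 and 21.1 CPM, 1.28e-08) were lower. In tumor mural-like cells 8 of 39 were higher and 4 lower, beside 13.2% and 4.62% of all genes. The non-canonical ligand Dlk1 led (219.5, 204 and 237 CPM, adjusted p = 1.05e-12), followed by Hey2 (1.00e-06), Numbl (0.000324) and Nrarp (8.20e-09), and the largest differences downward were those of Maml1 (0.0315) and the protease Adam17 (0.00101). The median log2 fold change over the list was 0.96 and 0.26 in endothelial-like cells of kidney and tumor and 0.26 and -0.19 in mural-like cells, beside 0.44, 0.24, 0.01 and 0.01 over all genes.

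Between conditions, in kidney endothelial-like cells 0 of 33 other pathway genes were past 2-fold at 15 min (7.31% of all genes) and 1 of 34 at 60 min (6.99%), Notch2 at 3.15 (1.39 to 8.84). In tumor luminal epithelial-like cells it was 1 of 37 at 15 min (6.3% of all genes), Nrarp at 0.482 (0.347 to 0.663), and 3 of 38 at 60 min (4.27%), Jag2 at 2.02 (1.27 to 3.26), Mfng at 2.12 (0.947 to 4.96) and Aph1b at 2.66 (1.48 to 4.96). Tumor macrophage-like cells had 2 of 33 at 15 min (15.4% of all genes), Dtx3l at 2.69 (2.12 to 3.42) and Hes6 at 2.18 (1.79 to 2.65), and 0 of 35 at 60 min (7.96%). Tumor endothelial-like cells had 0 of 32 at both times (5.25% and 5.63%). Kidney macrophage-like cells had 4 of 34 at 15 min (14.8%) and 2 of 35 at 60 min (6.59%).

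The genes whose levels ran most like those of a member were found by Pearson's r of log2(CPM + 1) over classes of at least 50 cells and libraries, 24 points in kidney and 20 in tumor, among genes outside the marker lists. Points of one library share its preparation and depth, and these values are descriptions. In kidney Notch1 ran with Gbp7, Calcrl and Xaf1 (r = 0.928 to 0.945), Notch4 with Jam2, Rasip1 and Fam57b (r = 0.904 to 0.927) and Dll4 with Msrb3, Nova2 and Pcdh12 (r = 0.982 to 0.985). Calcrl, Jam2, Rasip1 and Pcdh12 are known endothelial genes. Jag1 ran with Piezo1, Slc36a4 and Adamtsl2 (r = 0.876 to 0.925), Hes1 with Ccdc186, Nbeal1 and Crip2 (r = 0.893 to 0.908) and Hey1 with Gm6213, Tnxb and Snai2 (r = 0.986 to 0.998). Kidney gated cells outside the endothelial-like class held 4, 0 and 6 UMIs of Hey1, so its r rested on the endothelial-like points. Mural-like cells gave no point, because no kidney library held 50 of them.

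In the tumor Notch4 ran with Nos3, Robo4 and Btnl9 (r = 0.948 to 0.9701), of which Nos3 is the endothelial nitric oxide synthase, Dll4 with Reep1, Syt15 and C130074G19Rik (r = 0.964 to 0.968) and Notch1 with Nufip2, N4bp3 and Podxl (r = 0.877 to 0.891). Notch3 ran with Ddit4l, Ccdc160 and Ednra (r = 0.901 to 0.944), of which Ednra is an endothelin receptor, and Jag1 with P3h3, Rsu1 and Zcchc24 (r = 0.898 to 0.913). The targets Hes1, Hey1 and Heyl ran with Pkig, Tcim and Alg14 (r = 0.903 to 0.936), Mmp15, Fam181b and Capn5 (r = 0.931 to 0.944) and Clip3, Hoxc6 and Nnmt (r = 0.954 to 0.955). For the members given in both tissues, no gene was among the 3 most similar in both.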

How the data were processed

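Single cells were counted in 6 libraries, 1 per tissue and condition. The authors aligned reads to mm10 with Cell Ranger 3.1.0 (version also in the submitters' processing notes), merged each tissue's libraries after evening their depth, and deposited UMI counts per gene and cell. Barcode suffixes gave the library. Cells with at least 200 genes, at most 3000 (kidney) or 4000 (tumor) genes and at most 50% (kidney) or 25% (tumor) mitochondrial UMIs were kept. No doublet caller was run. Cells were gated by marker lists that hold no member, and CPM are UMIs per 1000000 UMIs of the class. Poisson and conditional binomial 95% intervals cover counting error only.

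Sums of at least 20 cells were tested with edgeR 4.0.16 (TMM, filterByExpr, quasi-likelihood) in R 4.3.3, and with DESeq2 1.42.0 as an alternative. The edgeR fit was also run on simulated counts whose classes shared a mean profile apart from planted changes, unlike the real classes. No result here rests on that run. Other steps used Python 3.11.15. The members and lists were chosen with earlier results of these data known. All 8 members are named, with the 3 genes most like each member that had at least 100 UMIs (those of Notch3 in kidney are not reported here), and the called pathway genes with the 4 largest positive and 2 largest negative fold changes. The genes past 2-fold between conditions that are named, and Notch2, were named after their values were seen. Other pathway genes past 2-fold in kidney macrophage-like cells are counted but not named. Alternatives were no low-count filter, the lower gene limit alone, a gate of 4 markers, Leiden clusters, scaling without mitochondrial genes, thinning to 1000 UMIs, sub-lists needing 3 genes, a pseudocount of 10 CPM, kept cells only, and leaving out each library.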

Additional observations from a re-analysis of the deposited data

Results flagged for a closer look

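In 8 pairs a member's ratio of platform to control lay on opposite sides of 1 in the pair, with each interval clear of 1, and the difference itself was not tested because each condition has 1 library per tissue. Between times in the tumor, Notch1 in luminal epithelial-like cells was at 1.32 at 15 min and 0.911 at 60 min, and Hes1 in endothelial-like cells at 0.896 and 1.11. Between tissues, in endothelial-like cells at 60 min, Notch4 was at 1.18 in kidney and 0.505 in tumor and Hes1 at 0.581 and 1.11, and Dll4 at 15 min was at 0.755 and 1.16. In macrophage-like cells at 60 min, Notch1 was at 1.28 in kidney and 0.537 in tumor and Jag1 at 1.92 and 0.464, and Hes1 at 15 min was at 0.512 and 1.35.

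Cells over the upper limit of genes entered the whole-library levels and the alternative with the lower limit only, but no class level or class test given as the main value, and held a larger share of some members than of all UMIs. In kidney they held 51.6% of the UMIs of Jag1 and 58.2% of those of Heyl, beside 45.8% of all UMIs. In tumor they held 42.5% of those of Hes1 and 54.98% of those of Heyl, beside 40.4% of all UMIs.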

How the results depend on the processing

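The counts of members higher than the mean of the other classes stayed within 1.5 times their value under each alternative run, and without 1 library at a time they ranged from 5 to 6 in kidney endothelial-like, 4 to 6 in kidney mural-like, 6 to 6 in tumor endothelial-like and 4 to 4 in tumor mural-like cells. Without the control or the 60 min library of the kidney, Hey1 did not pass the filter on low counts and was not tested. Of 248 single tests of members under alternatives, 241 kept their side of the threshold, 4 lost a call and 3 gained one. Beside those named with the class tests, tumor endothelial-like cells gained lower calls of Heyl in DESeq2 (adjusted p = 0.0346) and of Notch3 with clusters (5.48e-05). The count of members past 2-fold changed from 0 to 1 in kidney endothelial-like cells at 60 min and tumor luminal epithelial-like cells at 15 min, and to 2 in kidney macrophage-like cells at 15 min, with the lower limit of genes only. It changed from 0 to 1 in kidney macrophage-like cells at both times with the stricter gate, and in tumor endothelial-like cells at 60 min with clusters or scaling without mitochondrial genes. The cause was not tested. Of 215 ratios between conditions under alternatives, 207 moved by less than their interval. Of the ratios between list-positive and list-negative cells, 26 moved beyond their interval and 68 did not when 3 genes of a list were required, and 48 moved and 101 did not with cells thinned to 1000 UMIs. Of 48 whole-library levels of members, 35 moved beyond their interval with kept cells only. Of the 3 genes most like a member, 0 to 3 stayed with a pseudocount of 10 CPM. Thinning turned the ratio of Dll4 in cycling cells from 0.448 (3 UMIs) to 1.49. No paired analysis was possible because each condition has 1 library per tissue, so that no second mouse could be paired, and library was already a term of the class tests.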
